A study of Mus musculus with 12 samples.

Results

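The genes described here are the receptors of the B cell survival factor BAFF and the core of the noncanonical NF-kB pathway: Tnfrsf13c, Tnfrsf13b, Tnfrsf17, Cd40, Traf2, Traf3, Map3k14, Nfkb2 and Relb. They were chosen by name, and their 9 Entrez numbers are 9 of the 27179 genes in the count table. All 9 passed the filter on low counts, which kept 13592 genes for testing. RNA of mature B cells from the bone marrow of C57BL/6 mice was sequenced after sorting for high B220, surface IgM and absence of CD93. The apoptosis-resistant group (Bak-/- BaxD/D) was 10 weeks old, lacked BAK1 and carried a deleted Bax gene. Both proteins open the outer mitochondrial membrane in apoptosis. The apoptosis-sensitive group (Bak-/- Baxfl/fl) was also 10 weeks old and lacked BAK1, with a floxed but intact Bax gene. The old wild-type mice were 98, 99 and 100 weeks old, and the young wild-type mice were 9, 10 and 11 weeks old. Each group had 3 biological replicates, 12 libraries in all. The driver of the Bax deletion was not given in the sources used here.

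BAFF binds BAFF-R, TACI and BCMA, the products of Tnfrsf13c, Tnfrsf13b and Tnfrsf17, and BAFF-R is the main survival receptor of mature B cells. In unstimulated cells TRAF3, TRAF2 and the cIAP ubiquitin ligases keep the kinase NIK (Map3k14) at a low level by its continual degradation. When BAFF-R or CD40 is engaged, TRAF3 is degraded, NIK accumulates and activates IKK-alpha, and the p100 product of Nfkb2 is processed to p52, which enters the nucleus with RelB. Much of this control acts on proteins, which were not measured here.

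On GRCm38.p6 the receptor genes lie at chr15:82221742-82224380 (Tnfrsf13c), chr11:61126283-61153170 (Tnfrsf13b), chr16:11313232-11320074 (Tnfrsf17) and chr2:165055614-165071654 (Cd40). The genes between receptor and NIK lie at chr2:25517982-25546940 (Traf2), chr12:111166321-111267155 (Traf3) and chr11:103219764-103267401 (Map3k14). Those of the NF-kB subunits lie at chr19:46300994-46312400 (Nfkb2) and chr7:19606217-19629438 (Relb). Counts were taken per gene, so that they do not tell exons or isoforms apart.

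Library totals ran from 13474162 to 23539764 counts. In a principal component analysis the first component, with 31.9% of the variance, set the old and the young library collected on 24 March apart from the other 10. Bax was at 4.97, 6.42 and 8.36 CPM in apoptosis-resistant cells, against 55.7, 56.3 and 100.1 CPM in apoptosis-sensitive cells (log2 fold change -3.42 ± 0.40 SE, edgeR quasi-likelihood test, adjusted p = 0.0135). Levels are in CPM, for which each count is divided by its library's total as scaled by the trimmed mean of M values (TMM). Bak1 averaged 10.7 ± 3.72 CPM in apoptosis-resistant and 9.43 ± 3.15 CPM in apoptosis-sensitive cells, and 35.5 ± 10.4 CPM in old and 40.1 ± 8.10 CPM in young wild-type cells (SD, n = 3 each). The summed level of 8 B cell markers lay between 14603 and 20716 CPM in every library.

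Sequences carrying the kappa B motif, the DNA sequence bound by NF-kB dimers, are shown for some of the pathway genes described below. Of the 9 genes, Relb and Cd40 had no promoter in the RefSeq table of GRCm38.p6 and were not searched. Of the other 7, 2 (Nfkb2 and Traf3) had a match to the NF-kB consensus of 10 bases in the 250 bases before a transcription start. The inhibitor genes Nfkbia and Nfkbie, described below as lower in apoptosis-resistant cells, are shown beside them. Both strands were searched, and 7.25% of the 32851 windows held a match. Capitals mark the matches, each window is read in the direction of its gene, and a match is a description of these letters only.
Nfkb2, chr19:46304487-46304736, plus strand: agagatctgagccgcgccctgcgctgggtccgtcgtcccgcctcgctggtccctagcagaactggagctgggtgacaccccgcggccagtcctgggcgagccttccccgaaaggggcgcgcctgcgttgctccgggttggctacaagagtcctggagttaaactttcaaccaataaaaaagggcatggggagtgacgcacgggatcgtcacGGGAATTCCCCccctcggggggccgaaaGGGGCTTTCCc
Traf3, chr12:111166120-111166369, plus strand: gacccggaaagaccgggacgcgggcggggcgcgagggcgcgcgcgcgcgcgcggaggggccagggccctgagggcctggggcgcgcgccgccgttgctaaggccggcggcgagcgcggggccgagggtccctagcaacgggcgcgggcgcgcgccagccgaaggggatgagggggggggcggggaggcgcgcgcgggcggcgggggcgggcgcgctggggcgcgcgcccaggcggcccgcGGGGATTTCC
Nfkbia, chr12:55492648-55492897, minus strand: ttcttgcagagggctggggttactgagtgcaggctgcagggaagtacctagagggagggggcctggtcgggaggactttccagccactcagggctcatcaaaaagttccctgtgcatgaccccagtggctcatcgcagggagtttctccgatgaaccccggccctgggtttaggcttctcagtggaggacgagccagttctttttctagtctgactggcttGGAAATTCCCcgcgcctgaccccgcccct
Nfkbie, chr17:45555450-45555699, plus strand: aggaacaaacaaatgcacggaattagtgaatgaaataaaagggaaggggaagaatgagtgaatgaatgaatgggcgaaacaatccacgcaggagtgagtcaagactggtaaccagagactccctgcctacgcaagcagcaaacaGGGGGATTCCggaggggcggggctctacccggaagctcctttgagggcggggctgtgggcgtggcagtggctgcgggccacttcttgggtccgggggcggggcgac
The Nfkb2 window shown began matches at 39, 38 and 11 bases before the start site, the first pair overlapping. It lies inside the annotated gene, which has several start sites and runs from 46300994 to 46312400 on chromosome 19. The Nfkb2 windows from 46305445 and from 46305680, not shown, held 1 match each, 236 and 225 bases before their start sites. The match of Traf3 began 10 bases before its start, that of Nfkbia 29 bases and that of Nfkbie 106 bases before. That of Traf3, too, lies inside the annotated gene, which begins at 111166321 on chromosome 12. Among the other pathway genes followed below, 6 of the 34 with a window had a match: Nfkbia, Nfkbie, Rel, Ltb, Icosl and Bcl2l1. Rel averaged 136 CPM in apoptosis-resistant and 138 CPM in apoptosis-sensitive cells, and Icosl 476 and 495 CPM. Bcl2l1 averaged 6.81 and 6.96 CPM in these groups, and Ltb 503 and 653 CPM. A link between a match and a difference in level was not tested. Bcl2, Pim2 and Mcl1 had a window with 0 matches. Counted per gene, over all its windows, 8.23% of the 27025 genes in the table had one.

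Per length of exon, Tnfrsf13c was the most abundant of the 9 transcripts, with a mean over all 12 libraries of 216 CPM per kb. Nfkb2 followed with 94.6 CPM per kb and Relb with 54.4 CPM per kb. Cd40, the receptor of the T cell ligand CD40L, was at 41.6 CPM per kb and Tnfrsf13b at 36.6 CPM per kb. Map3k14, Traf3 and Traf2 were close together, with 31.2, 31.1 and 28.2 CPM per kb, and their order changed between groups. Cd40 and Tnfrsf13b also changed places, with Tnfrsf13b at 41.1 ± 3.71 and Cd40 at 35.7 ± 1.997 CPM per kb in apoptosis-resistant cells (SD, n = 3). Tnfrsf17, the receptor typical of plasma cells, was near the detection limit with 0.419 CPM per kb. The SD of log2 CPM over the 12 libraries was 0.44 for Nfkb2, the most variable of the 8 well detected transcripts, and 0.18 for Traf2, the least variable. Between the lowest and the highest library Nfkb2 spanned 3.01-fold, Tnfrsf13b 2.26-fold and Cd40 1.44-fold.

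**Figure D1:**
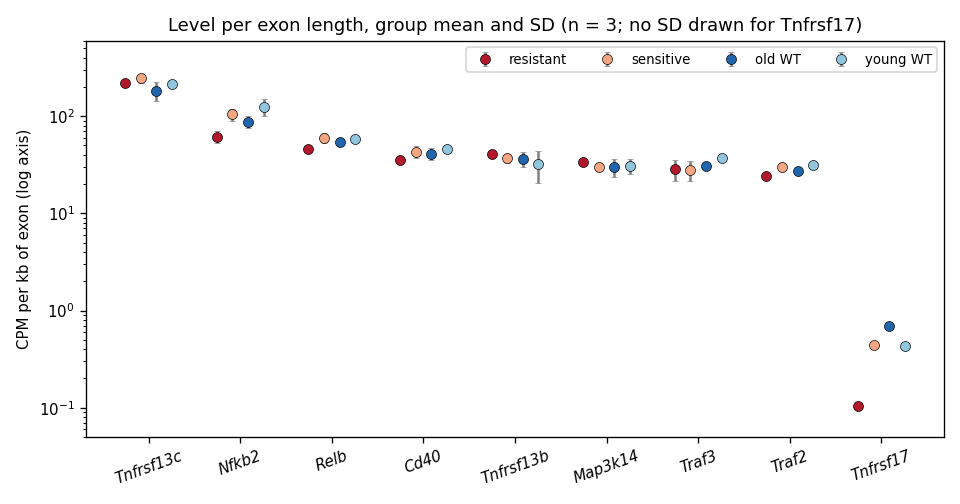
Level of each transcript in CPM per kb of exon on a log axis, as the mean of 3 libraries with the SD for the apoptosis-resistant, apoptosis-sensitive, old and young wild-type groups. No SD is drawn for Tnfrsf17, whose mean over all 12 libraries was 0.419 CPM per kb. Tnfrsf13c lies highest in every group, and Nfkb2 second.

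The first comparison asked how these transcripts differ between Bax-deleted and Bax-intact cells on a Bak1-deficient background. The term Bax effect stands below for this difference between the groups. The driver of the deletion was not given, and any part of it in the difference was not tested. Of the 9 genes, 6 were lower in apoptosis-resistant cells in all 3 pairs of libraries collected on the same date (Nfkb2, Relb, Traf2, Cd40, Tnfrsf13c and, with few reads, Tnfrsf17), against 23.2% of all genes. In all 3 pairs 2 were higher (Map3k14 and Tnfrsf13b), against 22% of all genes. Nfkb2 had the largest difference of the 8 well detected genes, and the log2 fold changes of Tnfrsf13c, Tnfrsf13b and Traf3 lay between -0.17 and 0.16. In edgeR by group alone, 0 of the 9 genes passed an adjusted p of 0.05, where 0.0441% of all genes did. At an unadjusted p under 0.05 there were 3 (Nfkb2, Relb and Traf2), against 4.90% of all genes. With the collection date as a block, which pairs the libraries, 2 of the 9 passed, both lower (Nfkb2 and Relb), against 1.97% of all genes lower. With DESeq2 1 was lower (Nfkb2), against 0.553% of all genes. In CPM the groups did not overlap for 4 genes that were lower (Nfkb2, Relb, Traf2 and Tnfrsf17) and 1 that was higher (Map3k14), against 8.31% and 6.32% of all genes. For Tnfrsf17 this rests on few reads and the read numbers overlapped, which leaves 3 well detected genes that were lower. The median log2 fold change was -0.27 over the 9 genes and -0.02 over all genes tested.

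Nfkb2, which encodes p100 and p52 and is itself an NF-kB target, was at 277, 282 and 218 CPM in apoptosis-resistant cells, against 432, 509 and 385 CPM in apoptosis-sensitive cells. Every apoptosis-resistant library was below every apoptosis-sensitive one. The log2 fold change was -0.77 ± 0.21 (SE), with an adjusted p of 0.395 in edgeR by group alone, 0.0034 with the date block and 0.0365 in DESeq2. The differences within the date pairs were -0.64, -0.85 and -0.82 on the log2 scale. With the block and any 1 pair of dates left out, the adjusted p of edgeR ran from 0.000935 to 0.0383. It ran from 0.0256 to 0.0383 where the pair left out was a Bak1-deficient one.

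Relb, the partner of p52, was at 94.6, 99.6 and 108 CPM in apoptosis-resistant cells, against 124, 123 and 150.2 CPM in apoptosis-sensitive cells. Here too the groups did not overlap. The log2 fold change was -0.39 ± 0.15, with an adjusted p in edgeR of 0.787 by group alone and 0.0295 with the date block. With 1 pair of dates left out, the blocked adjusted p of edgeR ran from 0.023 to 0.235, and the call was lost without the pair of 30 May, of 31 May or of 7 May. These are all the pairs of Bak1-deficient libraries, and the other fits left out wild-type libraries only. Relb and the deleted gene Bax are on the same chromosome, 25832257 bases apart.

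Of the genes that restrain or carry the signal to NIK, Traf2, an adaptor that recruits the cIAPs, was at 74.3, 69.5 and 76.65 CPM in apoptosis-resistant cells, against 89.6, 90.85 and 96.9 CPM in apoptosis-sensitive cells. Its groups did not overlap, but it passed neither by group alone (log2 fold change -0.33 ± 0.13, edgeR adjusted p = 0.849) nor with the date block (0.0743). Map3k14, which encodes NIK, was at 149, 144 and 141 CPM in apoptosis-resistant cells, against 123, 132 and 126 CPM in apoptosis-sensitive cells. This was the one of the 9 genes with apoptosis-resistant libraries above all apoptosis-sensitive ones, at a log2 fold change of 0.19 ± 0.19 (edgeR adjusted p = 0.244 with the block). Traf3, the adaptor that brings NIK to the cIAPs, was at 222, 241 and 149.6 CPM in apoptosis-resistant cells, against 226, 226 and 148.9 CPM in apoptosis-sensitive cells. Both libraries of 7 May were low, and the difference within each date pair was between -0.03 and 0.09 on the log2 scale. The log2 fold change of 0.03 ± 0.21 did not pass.

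Of the receptors, Tnfrsf13c was at 453, 483 and 409.9 CPM in apoptosis-resistant cells, against 461, 565 and 486 CPM in apoptosis-sensitive cells, with overlapping groups (log2 fold change -0.17 ± 0.20). Cd40 was at 105, 113.3 and 102 CPM in apoptosis-resistant cells, against 111, 128 and 146.5 CPM in apoptosis-sensitive cells, again with overlap (-0.27 ± 0.16, edgeR adjusted p = 0.223 with the block). Tnfrsf13b averaged 105 ± 9.48 CPM in apoptosis-resistant and 94.2 ± 9.34 CPM in apoptosis-sensitive cells (SD, n = 3 each), a log2 fold change of 0.16 ± 0.25. None of the 3 receptors passed in any of the fits. Tnfrsf17 had 0, 1 and 4 reads in apoptosis-resistant libraries, against 11, 4 and 5 in apoptosis-sensitive ones, too few for a fold change. The library with 0 reads allows up to 0.207 CPM at 3 counts.

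**Figure D2:**
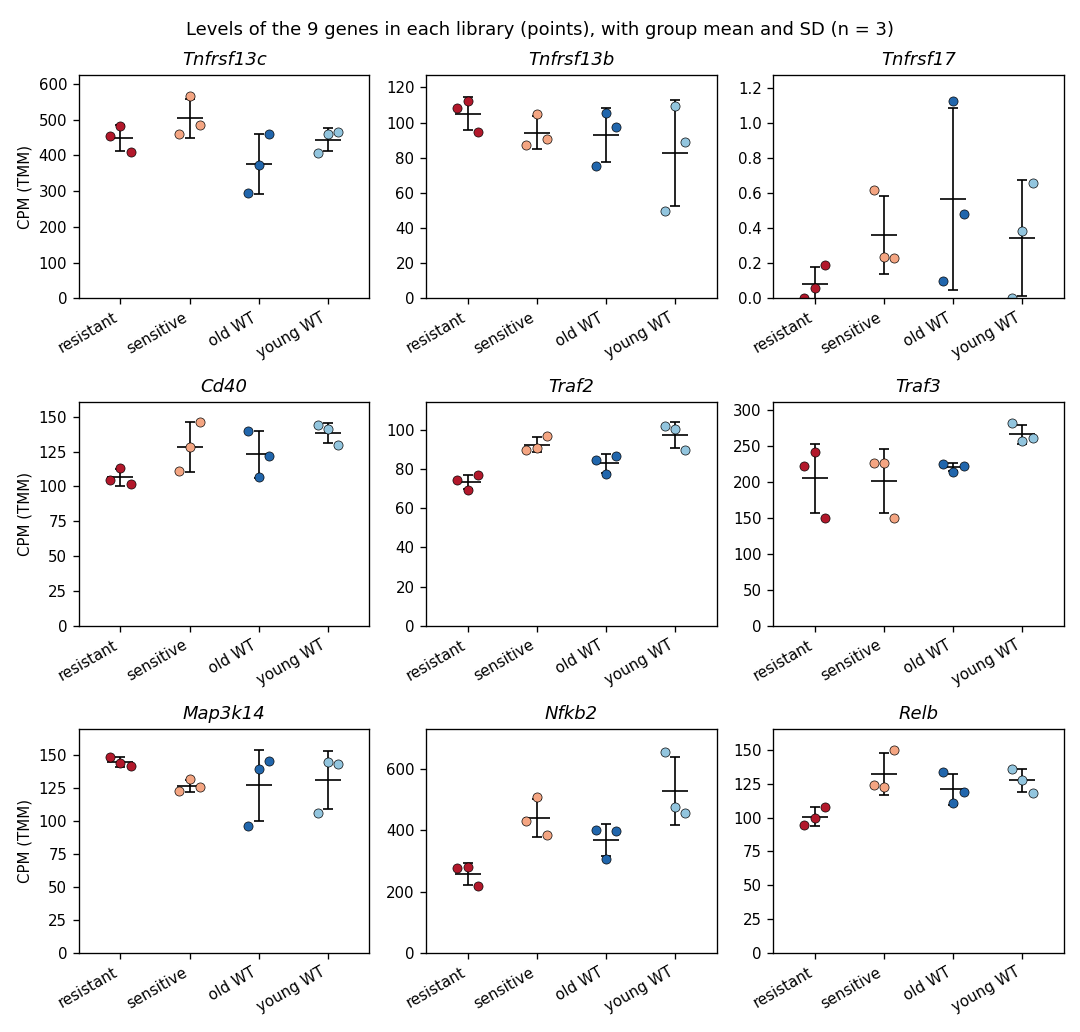
CPM of each of the 9 genes in every library (points), with the mean and SD of 3 libraries for apoptosis-resistant, apoptosis-sensitive, old and young wild-type cells. For Nfkb2 the apoptosis-resistant libraries lie at 218 to 282 CPM, below all apoptosis-sensitive libraries at 385 to 509 CPM.

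The other genes of the pathway were followed in 6 lists with 41 genes, of which 35 were tested. By group alone 0 passed edgeR's threshold in this comparison, with 7 at an unadjusted p under 0.05, against 4.90% of all genes. With the date block 6 were lower and 0 higher, against 1.97% and 1.43% of all genes, and with DESeq2 3 were lower, against 0.553% of all genes. Of 8 canonical NF-kB genes, Nfkbia and Nfkbie were lower with the block. Both encode inhibitors that hold NF-kB dimers in the cytoplasm and are themselves NF-kB targets. Nfkbie was at 119, 111 and 122 CPM in apoptosis-resistant cells, against 167, 177.6 and 203 CPM in apoptosis-sensitive cells (log2 fold change -0.64 ± 0.19, edgeR adjusted p = 0.481 by group alone and 0.016 with the block). Nfkbia was at 179, 154 and 192 CPM in apoptosis-resistant cells, against 219, 222 and 263 CPM in apoptosis-sensitive cells (-0.42 ± 0.17, 0.848 and 0.0194). In both genes the groups did not overlap. Both calls were lost with any 1 of the Bak1-deficient pairs left out (30 May, 31 May or 7 May). There the blocked adjusted p of edgeR reached 0.138 for Nfkbie and 0.164 for Nfkbia.

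Of 8 genes that BAFF and NF-kB are known to raise or that carry survival, 3 were lower with the block and 0 higher, against 1.97% and 1.43% of all genes. The list's median log2 fold change was -0.47, against -0.02 over all genes, with 7 genes negative and 1 positive. The positive one was the CD23 gene Fcer2a, which averaged 1275 CPM in apoptosis-resistant and 1003 CPM in apoptosis-sensitive cells, with overlap. Pim2, a survival kinase, was at 28.6, 26.1 and 32.0 CPM in apoptosis-resistant cells, against 50.8, 40.3 and 56.1 CPM in apoptosis-sensitive cells (log2 fold change -0.76 ± 0.16, edgeR adjusted p = 0.185 by group alone and 0.0022 with the block). The anti-apoptotic gene Bcl2 was at 88.2, 114 and 69.0 CPM in apoptosis-resistant cells, against 203, 158 and 145 CPM in apoptosis-sensitive cells (-0.90 ± 0.20, 0.23 and 0.0037). Neither gene's groups overlapped. Both kept an edgeR adjusted p under 0.05 with the block whichever pair of dates was left out, at most 0.0334 for Pim2 and 0.0398 for Bcl2. Mcl1, another anti-apoptotic gene and named here after its values were seen, averaged 1013 CPM in apoptosis-resistant and 1528 CPM in apoptosis-sensitive cells (-0.59 ± 0.18, edgeR adjusted p = 0.485 by group alone and 0.0106 with the block). Its call was lost with any 1 of the Bak1-deficient pairs left out (30 May, 31 May or 7 May), at an edgeR adjusted p of up to 0.117.

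Of 7 regulators of NIK and p100 turnover, Btrc, a subunit of the ubiquitin ligase that recognises p100, was lower with the block. Its level was 38.5, 33.6 and 40.9 CPM in apoptosis-resistant cells, against 50.1, 41.75 and 65.5 CPM in apoptosis-sensitive cells (log2 fold change -0.48 ± 0.18, edgeR adjusted p = 0.767 by group alone and 0.0332 with the block). This call, too, was lost without any of these 3 pairs, at an edgeR adjusted p of up to 0.304. Peli1, a ubiquitin ligase, did not pass (0.21 ± 0.19). Among 6 TRAF, cIAP and IKK-alpha genes 0 passed with the block, and the lowest p values were those of Birc3, which encodes cIAP2 (-0.24 ± 0.18), and Traf6 (0.24 ± 0.22). Of 8 ligand genes 3 were tested and 0 passed. Ltb and Lta, which encode the lymphotoxins, had log2 fold changes of -0.37 ± 0.30 and -0.28 ± 0.28. Of 4 other receptor genes 3 were tested and 0 passed, with Cd27 at 0.69 ± 0.55 and Tnfrsf12a at -0.25 ± 0.45.

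**Figure D3:**
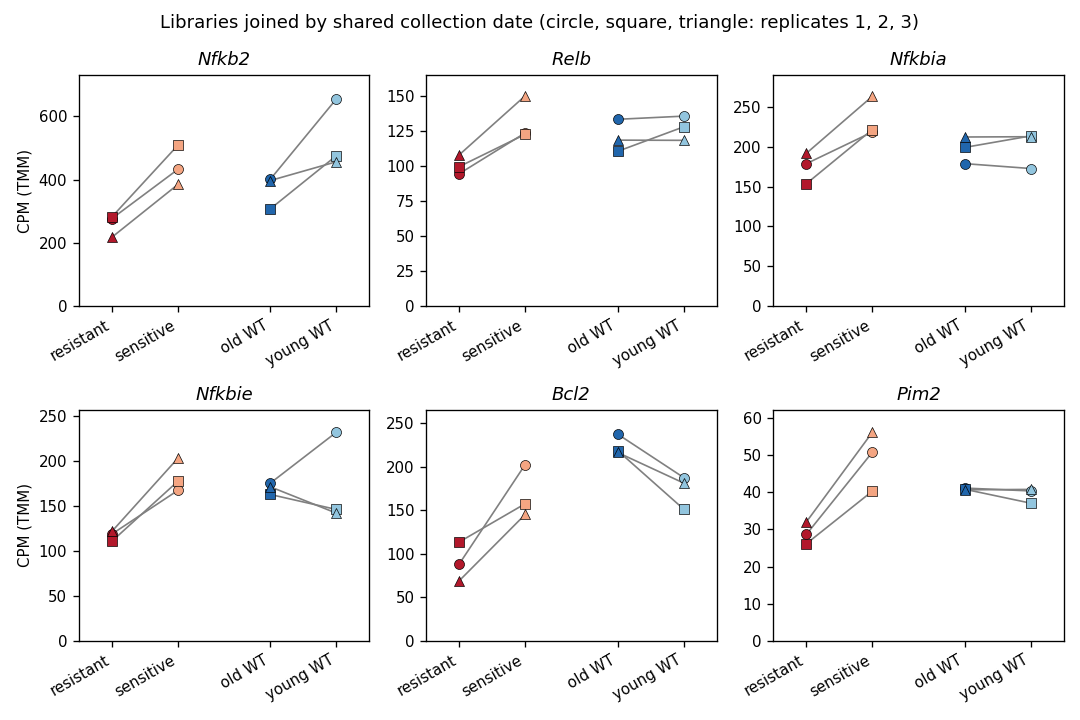
CPM of Nfkb2, Relb, Nfkbia, Nfkbie, Bcl2 and Pim2, with a line between libraries collected on the same date (circle, square and triangle for replicates 1, 2 and 3), apoptosis-resistant beside apoptosis-sensitive and old beside young wild type. All 6 genes are lower in the apoptosis-resistant library of each of the 3 pairs, against 23.2% of all genes. They were drawn because they had passed as lower with the date block, which pairs these libraries. Their shared direction is therefore no separate support. Between old and young cells Nfkb2 is lower in each of the 3 old libraries, and Bcl2 is higher in each.

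The second comparison asked how the same transcripts differ with age in wild-type cells. Of the 9 genes, 5 were lower in old cells in all 3 date pairs (Nfkb2, Traf3, Traf2, Tnfrsf13c and Cd40) and 0 were higher in all 3, against 25.2% and 22.8% of all genes. Nfkb2 had the largest difference of the 8 well detected genes, and the log2 fold changes of Relb, Map3k14 and Tnfrsf13b lay between -0.08 and 0.17. In edgeR by group alone 0 of the 9 genes passed, where 2.01% of all genes did, and 1 (Nfkb2) had an unadjusted p under 0.05, against 11.6% of all genes. With the date block 2 were lower (Nfkb2 and Traf3) and 0 higher, against 7.03% and 7.89% of all genes. With DESeq2 0 passed, against 5.16% of all genes. Groups did not overlap for 3 genes, all lower in old cells (Nfkb2, Traf2 and Traf3), against 6.96% of all genes. The median log2 fold change was -0.17 over the 9 genes and -0.03 over all genes.

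Nfkb2 was at 401, 307 and 397 CPM in old cells, against 655, 475 and 456 CPM in young cells. The groups did not overlap, and the young library of 24 March was the highest of all 12. The log2 fold change was -0.52 ± 0.21, with an adjusted p in edgeR of 0.342 by group alone and 0.0103 with the date block. The differences within the date pairs were -0.71, -0.63 and -0.20. With 1 pair of dates left out, the blocked adjusted p of edgeR ran from 0.00283 to 0.0678, and the call was lost without the pair of 24 March or of 11 April. Relb was at 133, 111 and 119 CPM in old cells, against 136, 128 and 118 CPM in young cells, with overlap (-0.08 ± 0.15).

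Traf3 was at 225, 213 and 222 CPM in old cells, against 281, 256 and 260.4 CPM in young cells. Its groups did not overlap, and the log2 fold change was -0.27 ± 0.21 with an adjusted p in edgeR of 0.781 by group alone and 0.0415 with the block. Without any 1 pair of dates the call was lost, at an edgeR adjusted p of 0.0527 to 0.124. Traf2 was at 84.5, 77.2 and 86.65 CPM in old cells, against 101.8, 100.4 and 89.5 CPM in young cells. These groups did not overlap either, but the difference did not pass (-0.23 ± 0.13, edgeR adjusted p = 0.105 with the block). Map3k14 was at 96.0, 139 and 146 CPM in old cells, against 106, 145 and 143 CPM in young cells (-0.05 ± 0.19). Its 2 low libraries were the pair of 24 March.

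Of the receptors, Tnfrsf13c was at 294, 374 and 459 CPM in old cells, against 407, 460.0 and 466 CPM in young cells. It was lower in the old library of each date pair, by -0.47, -0.30 and -0.02 on the log2 scale, and did not pass (-0.24 ± 0.20, edgeR adjusted p = 0.110 with the block). Without the pair of 12 April its blocked adjusted p in edgeR was 0.0426. Tnfrsf13b was at 75.5, 105 and 97.7 CPM in old cells, against 49.8, 109 and 88.8 CPM in young cells, with the lowest value of each group in the library of 24 March (0.17 ± 0.25). Cd40 was at 140.0, 107 and 122 CPM in old cells, against 144, 141 and 130.0 CPM in young cells, with overlap (-0.17 ± 0.16). Tnfrsf17 had 2, 22 and 9 reads in old libraries, against 0, 9 and 10 in young ones, of which the first allows up to 0.246 CPM at 3 counts. The old library with 22 reads also had the highest sum of 6 plasma cell markers, 1767 CPM, against at most 906 CPM in any other group. The part of plasma cells in it was not tested.

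**Figure D4:**
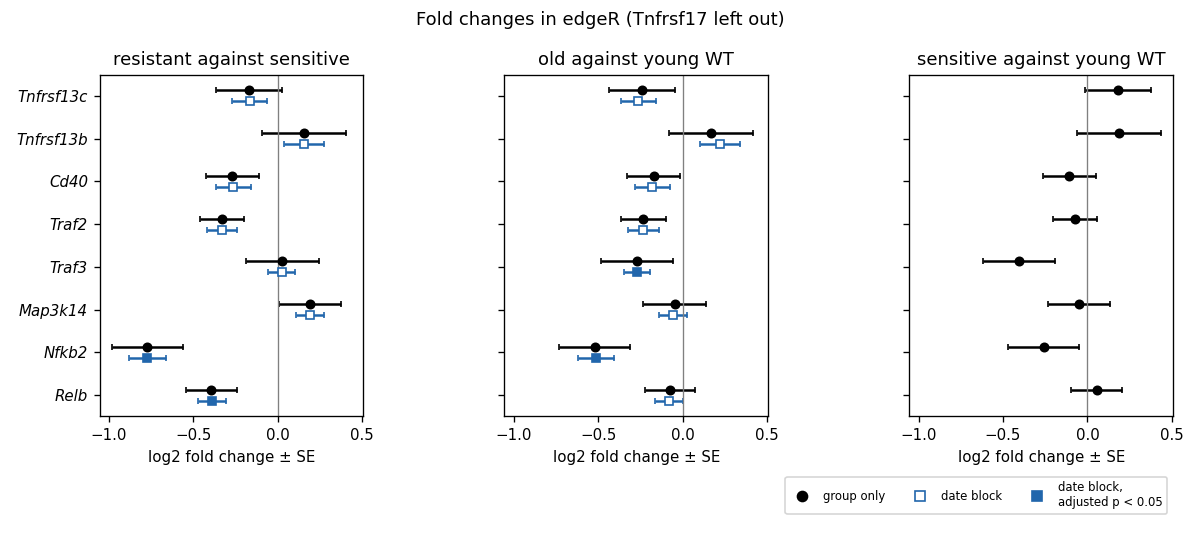
Log2 fold change with its SE for 8 of the genes (Tnfrsf17 is left out for its few reads) in the comparisons of apoptosis-resistant with apoptosis-sensitive, old with young wild-type and apoptosis-sensitive with young wild-type cells, by group alone (circles) and with the date block (squares, filled at an adjusted p under 0.05). The filled squares are Nfkb2 (-0.77) and Relb (-0.39) on the left and Nfkb2 (-0.51) and Traf3 (-0.27) in the middle.

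Among the 35 other pathway genes tested, 0 passed with age in edgeR by group alone, with 4 of the 35 at an unadjusted p under 0.05, against 11.6% of all genes, which is near the same share. With the date block 3 were higher (Traf1, Fbxw7 and Cd83) and 6 lower (Otud7b, Peli1, Rel, Ikbkb, Cr2 and Fcer2a), against 7.89% and 7.03% of all genes. With DESeq2 3 were higher (Tnfsf13b, Traf1 and Fbxw7) and 0 lower, against 4.11% and 1.05% of all genes. Traf1, a TRAF adaptor that NF-kB is known to induce, was at 129, 85.7 and 101 CPM in old cells, against 72.9, 49.0 and 35.9 CPM in young cells (log2 fold change 1.003 ± 0.30, edgeR adjusted p = 0.14 by group alone and 0.0146 with the block). Its groups did not overlap, and the blocked call was lost without the pair of 24 March or of 11 April, at an edgeR adjusted p of up to 0.0767. Fbxw7, a ubiquitin ligase subunit that recognises p100, was at 74.5, 91.2 and 88.9 CPM in old cells, against 50.6, 62.2 and 62.65 CPM in young cells (0.54 ± 0.15, 0.108 and 0.0031). It kept a blocked adjusted p in edgeR of at most 0.0196 whichever pair of dates was left out. Fcer2a, which encodes CD23 and marks follicular B cells, was at 1067, 664 and 897 CPM in old cells, against 1715, 1473 and 1166 CPM in young cells (-0.73 ± 0.25, 0.222 and 0.0044). Its blocked adjusted p in edgeR was at most 0.0274 with 1 pair left out.

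Rel, a canonical NF-kB subunit, was at 116, 128 and 118 CPM in old cells, against 179, 159.9 and 173 CPM in young cells. The groups did not overlap, and the call was made with the block alone (log2 fold change -0.50 ± 0.37, edgeR adjusted p = 0.753 by group alone and 0.0082 with the block). Without the pair of 24 March it was lost, at an edgeR adjusted p of 0.0523. Of the others, Peli1 (-0.37 ± 0.19, blocked edgeR adjusted p = 0.0128) and Ikbkb, the kinase subunit IKK-beta (-0.38 ± 0.34, 0.034), were lower and Cd83, an activation marker, was higher (0.61 ± 0.31, 0.0347), all with the block alone. With 1 pair left out the blocked adjusted p of edgeR reached 0.0674 for Peli1, lost without 24 March. It reached 0.154 for Ikbkb and 0.209 for Cd83, each lost without 24 March, 11 April or 30 May, Ikbkb also without 31 May and Cd83 without 12 April. By group alone and with 1 library left out, the log2 fold change of Ikbkb ran from -0.75, without the old library of 24 March, to 0.13, without the young one. Otud7b lost its blocked call without any 1 pair, and Cr2 without any but 24 March. Tnfsf13b, the gene of BAFF itself, was at 4.40, 4.66 and 2.69 CPM in old cells, against 0.33, 0 and 0.86 CPM in young cells. Every old library was above every young one, and the gene passed in DESeq2 (adjusted p = 0.0156) but not in edgeR (log2 fold change 3.36 ± 1.01, adjusted p = 0.139).

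Markers of some other cells differed with age in the same libraries. The summed level of 8 T cell markers was 18.2 to 21.6 CPM in old cells, against 1.67 to 4.35 CPM in young cells. For 6 stromal markers it was 17.7 to 144 CPM in old cells, against 2.55 to 12.9 CPM in young cells. For 4 NK cell markers it was 2.30 to 3.72 CPM in old cells, against 0.257 to 0.791 CPM in young cells, and for 6 monocyte and macrophage markers 52.5 to 191 CPM in old cells, against 19.7 to 127 CPM in young cells. Of the 4 NK cell markers, with at most 35 reads each in a library, 2 were tested. Gzma, one of the 4, was at 0.147, 0.0512 and 0.108 CPM in old cells, against 0.329, 0.0428 and 0.264 CPM in young cells. In each of these 4 lists 1 marker passed edgeR's threshold by group alone, higher in old cells, and up to 3 of the stromal markers were at 0 in a young library. Of 6 plasma cell, 6 granulocyte and 4 erythroid markers 0 passed with age, with median log2 fold changes of 0.47, -0.03 and -0.20. Between apoptosis-resistant and apoptosis-sensitive cells the T cell sums were 3.76 to 5.93 CPM and 2.15 to 5.70 CPM, and the granulocyte sums of 6 markers 14.2 to 37.0 CPM and 35.8 to 329 CPM. Cd93, which the sort excludes, was at 16.1 to 21.1 CPM in apoptosis-resistant cells, against 31.3 to 33.2 CPM in apoptosis-sensitive cells, and at 9.52 to 13.7 CPM in old cells, against 29.3 to 36.1 CPM in young cells. By group alone in edgeR it passed with age (log2 fold change -1.43) but not with Bax (-0.84). The part of these cells in the values of the 9 genes and of Tnfsf13b was not tested. In sorted pools, a change in the mix of cells and a change in RNA per cell cannot be told apart.

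**Figure D5:**
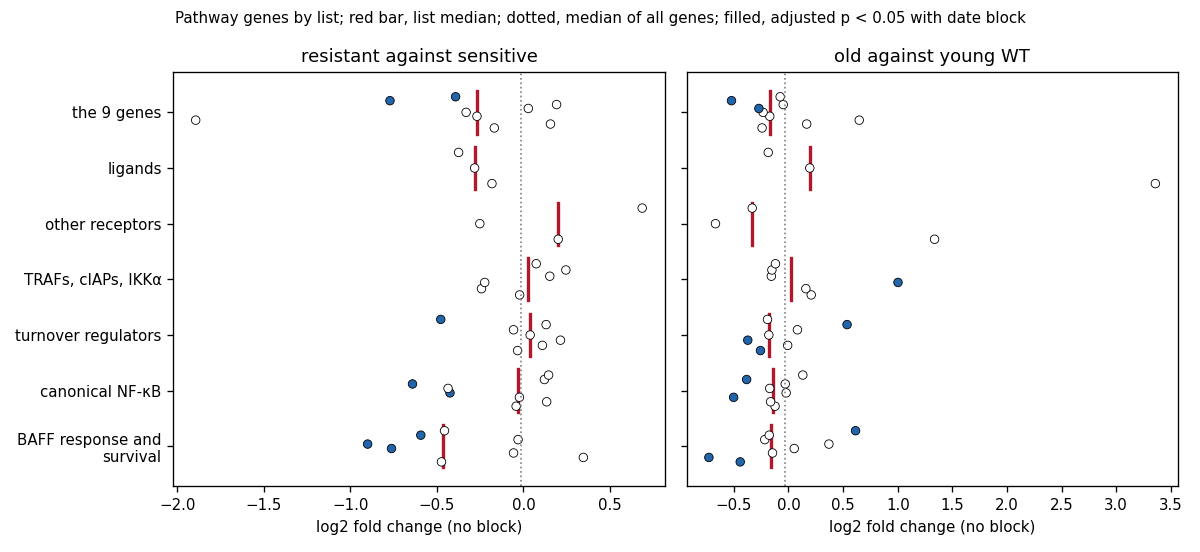
Log2 fold change by group alone of each tested gene in the 9 genes and the 6 pathway lists, apoptosis-resistant against apoptosis-sensitive on the left and old against young wild type on the right. A red bar marks each list's median, the dotted line the median of all genes, and filled points passed an adjusted p of 0.05 with the date block. On the left the filled points all lie below 0, and on the right 3 of the pathway genes lie above and 6 below.

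The difference between both effects was tested directly, as the age effect minus the Bax effect. Of the 9 genes 0 passed in edgeR by group alone, with the date block or in DESeq2, and 0 had an unadjusted p under 0.05, where 0.25%, 7.03% and 1.88% of all genes passed and 6.88% had such an unadjusted p. The difference was 0.25 ± 0.30 for Nfkb2 and 0.32 ± 0.21 for Relb on the log2 scale, with approximate 95% intervals of -0.34 to 0.84 and -0.10 to 0.73. These intervals take the estimates as normally distributed, which makes them narrower than edgeR's test would. Of the 35 other pathway genes 0 differed in edgeR by group alone, 2 (Bcl2 and Pim2) in DESeq2 and 8 with the block, 5 upward and 3 downward, against 3.51% and 3.52% of all genes. In Bcl2 (1.29, blocked edgeR adjusted p = 0.0031), Pim2 (0.81, 0.0069), Nfkbie (0.65, 0.0454), Traf1 (1.21, 0.0487) and Cd83 (1.05, 0.0322) the age effect lay above the Bax effect. This need not be a rise with age. Pim2 averaged 40.8 CPM in old and 39.4 CPM in young cells, and Nfkbie 170 and 173 CPM. In Fcer2a (-1.08, 0.0073), Peli1 (-0.61, 0.0164) and Rel (-0.54, 0.0452) the Bax effect lay above the age effect. Rel itself averaged 136 CPM in apoptosis-resistant and 138 CPM in apoptosis-sensitive cells. With 1 pair of dates left out, 3 to 6 of the 35 passed. Bcl2, Pim2 and Fcer2a passed whichever pair it was, and the other 5 were each lost in at least 2 of the 6 fits.

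For context, apoptosis-sensitive cells were compared with young wild-type cells, which differ in Bak1 and Bax alleles and share no collection date, so that date and genotype cannot be told apart. Of the 9 genes 0 passed in edgeR, where 0 of all genes did, and 0 had an unadjusted p under 0.05, against 2.73% of all genes. DESeq2 called 0 of the 9, against 0.103% of all genes. Traf3 was the one gene without overlap, lower in apoptosis-sensitive cells (log2 fold change -0.41 ± 0.21, edgeR adjusted p = 0.824), against 4.25% of all genes. Its apoptosis-sensitive libraries ran from 148.9 CPM, in that of 7 May, to 226 CPM. With 1 library left out, the log2 fold change of Traf3 ran from -0.51 to -0.22. Nfkb2 (-0.26 ± 0.21) and Tnfrsf13c (0.18 ± 0.20) overlapped between the groups. Of the 35 pathway genes 0 passed, and the lowest p values were those of Cd27 (-1.50 ± 0.55), a receptor of activated and memory lymphocytes, and Cd83 (0.67 ± 0.31).

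Over the 12 libraries, the genes with the pattern most like that of Tnfrsf13c were Ly9, Parvg and Lrrc47. Their root mean square differences from it in centred log2 CPM were 0.092, 0.094 and 0.096, among 8482 candidates, and the SD of Tnfrsf13c itself was 0.23. For Nfkb2 they were Osbpl5, Gramd3 and Nr2f6, with differences of 0.18, 0.19 and 0.21 against its own SD of 0.44.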

How the data were processed

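The deposited values are raw read counts per gene, in a single table whose columns are the 12 libraries, with 0 columns unused. The submitters' processing notes name Subread, featureCounts and the build mm10. Versions, annotation, strand setting and filters were not stated, so reads of overlapping or antisense genes are uncertain. Per the labels' protocols, polyadenylated RNA was made into libraries with Illumina TruSeq reagents. Symbols were matched for 25275 of 27179 genes through RefSeq GRCm38.p6, and positions and promoter sequences are from there. Exon lengths are unions of GENCODE M21 exons.

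Genes were kept by filterByExpr (minimum count 10), leaving 13592, 408 without a symbol. All 12 libraries were fitted by group with TMM and edgeR 4.0.16's robust quasi-likelihood test under R 4.3.3 (8 residual degrees of freedom), and adjusted over all genes tested after Benjamini and Hochberg at a threshold of 0.05. Alternatives were DESeq2 1.42.0, RLE scaling, no filter, the compared libraries alone, each library left out, the pair of 24 March left out and a block by collection date (4 residual degrees of freedom). The code was tested on simulated counts. Replicates are biological, per the series design, and each pair differed beyond counting noise.

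Per the labels, same-numbered old and young libraries share a collection date (24 March, 11 April, 12 April), as do apoptosis-resistant and apoptosis-sensitive ones (30 May, 31 May, 7 May). The pairing was checked by the correlation of deviations from group means, which was 0.512 to 0.745 in wild-type and 0.284 to 0.487 in Bak1-deficient pairs. The year on the 24 March labels differs from the others. Fits with the block and 1 pair left out were added after seeing the data. Members and lists were chosen with earlier results of these data known. Pathway genes were named as the 2 with the lowest p per list, and all called genes were counted. Limits set by a count of 0 cover counting error only.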

Additional observations from a re-analysis of the deposited data

How the results depend on the processing

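With the collection date block, old against young wild type had 2 of the 9 genes, 9 pathway genes and 2028 genes in all past the threshold, against 0, 0 and 273 by group alone, and 52.9% of these calls were higher in old cells, against 84.6% by group alone. Apoptosis-resistant against apoptosis-sensitive had 2, 6 and 463, against 0, 0 and 6, and the age effect minus the Bax effect 0, 8 and 955, against 0, 0 and 34. DESeq2 gave 0, 3 and 700 with age, 1, 3 and 128 with Bax, 0, 2 and 255 for the difference and 14 genes in all for apoptosis-sensitive against young. Without both libraries of 24 March, 1 pathway gene passed with age (Fbxw7) and 1 with Bax (Nfkbie), and all calls were 31 with Bax, 75 for the difference and 3 for apoptosis-sensitive against young. With no filter they were 11 with Bax and 3 for apoptosis-sensitive against young, and with the compared libraries alone 1 with age. No block could be fitted between apoptosis-sensitive and young cells, which share no date. The causes were not tested. With each library left out, all calls ran from 75 to 267 with age, 0 to 13 with Bax, 0 to 4 for apoptosis-sensitive against young and 2 to 37 for the difference, and those of the 9 genes and of the pathway stayed at 0. The age count was lowest, 75, without young replicate 2 and 86 without old replicate 2, and the Bax count was 0 without apoptosis-sensitive replicate 1 or apoptosis-resistant replicate 3. With the block and 1 pair of dates left out, calls ran from 0 to 2 of the 9 genes, 3 to 8 of the pathway and 925 to 2138 in all with age, 1 to 2, 2 to 7 and 131 to 565 with Bax, and 0, 3 to 6 and 250 to 901 for the difference. Of all genes the fewest were called without 24 March for age, and without 30 May for Bax and the difference. Of 789 alternative values of the 36 fold changes of the 9 genes, 736 kept direction and side of the threshold, 19 newly passed, 0 were lost and 34 reversed, 29 of them with libraries left out. None of the reversed ones belonged to Nfkb2. Without the libraries of 24 March, apoptosis-sensitive against young reversed for Tnfrsf13b (-0.054) and Tnfrsf17 (-0.49), and the difference of effects for Tnfrsf13c (0.016) and Tnfrsf13b (-0.12, and -0.0087 with no filter). With libraries left out, the ranges that crossed 0 were, for the difference of effects, Cd40 -0.054 to 0.20, Tnfrsf13b -0.22 to 0.26, Tnfrsf13c -0.26 to 0.064 and Traf2 -0.0011 to 0.16. For Bax it was Traf3, -0.13 to 0.22. For apoptosis-sensitive against young they were Map3k14 -0.16 to 0.024, Relb -0.041 to 0.13, Tnfrsf13b -0.047 to 0.43 and Tnfrsf17 -0.60 to 0.69. For age they were Map3k14 -0.16 to 0.12, Relb -0.15 to 0.00025, Tnfrsf13b -0.075 to 0.42 and Tnfrsf17 -0.30 to 1.69. Depth limits Tnfrsf17, with at most 22 reads in a library.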

Other observations

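In both libraries of 7 May, apoptosis-resistant and apoptosis-sensitive, Rel and Traf3 were low together. Rel was at 75.65 CPM in the apoptosis-resistant library and 61.6 CPM in the apoptosis-sensitive one, against 161 to 177 CPM in the other 4 Bak1-deficient libraries. Traf3 was at 149.6 and 148.9 CPM in those 2 libraries, against 222 to 241 CPM in the other 4. In the pair of 24 March, Ikbkb was at 674 CPM in the old and 953 CPM in the young library, against 337 to 484 CPM in the other 10 libraries. These genes were chosen after their values were seen.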
